A study of Mus musculus with 6 samples.

Results

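The Toll adaptor and NF-kB signalling genes are a list of 46 genes. Some carry a signal from Toll-like, interleukin-1 and tumour necrosis factor receptors to NF-kB, and others are inhibitors that switch it off or target genes. The 46 genes were chosen by gene symbol from a list of adaptors, kinases, transcription factor subunits, inhibitors and targets. All 46 were among the 13642 genes of the deposited table. They were described in long-lived plasma cells, the durable antibody producers of the bone marrow, from C57BL/6J mice. The young group held 3 libraries from female mice aged 2 to 3 months, supplied by the Jackson Laboratory or by a facility at UCLA. The old group held 3 libraries from male mice aged 17 to 19 months, supplied by the National Institute on Aging. Age, sex and supplier therefore changed together and cannot be told apart, and no genetic or drug treatment was given in the labels. The sort took CD138-high cells without B220, IgD, T cell receptors of either kind, CD11b or Gr-1, and libraries were made from 5 ng of RNA. The labels did not say whether a library came from 1 animal or from pooled animals, and the p-values therefore reflect the spread between these samples alone, which may be technical.

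In this pathway a ligand-bound Toll-like or interleukin-1 receptor recruits adaptors with a TIR domain, which assemble IRAK kinases and the ubiquitin ligase TRAF6. These activate the TAK1 kinase complex and then the IkB kinases, which mark IkB proteins for destruction and so free NF-kB dimers to enter the nucleus. A slower alternative branch, driven by the kinase NIK and used by receptors such as that for BAFF, processes the Nfkb2 product and releases RelB. NF-kB switches on its own inhibitors, among them IkB-alpha and A20, so levels of these transcripts are commonly read as a sign of recent pathway activity. Plasma cells receive survival signals through TNF family receptors that use parts of this network.

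Values are FPKM, fragments per kilobase of gene scaled to library size, as deposited, which allows levels of different genes to be compared per length. The low values of the table placed about 22.4 to 28.2 M reads behind the libraries, and a single read in a 1 kb gene then amounts to 0.0355 to 0.0447 FPKM. Young libraries had 8934 to 10664 genes above 0 and old libraries 11310 to 12049, and young replicate 3 had the lowest depth and the fewest genes. Plasma cell markers were abundant throughout: Jchain was between 7514 and 19793 FPKM, Xbp1 between 414 and 924 and Sdc1, which encodes the sorted CD138, between 174 and 407. Old replicate 3 had the lowest value of each of these 3 genes.

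The 46 genes were well represented in these cells. Their median level was 16.6 FPKM, against 5.99 FPKM over all genes of the table, and 37 of the 46 lay above that general median. All 46 had a mean of at least 1 FPKM over the 6 libraries and so entered the test, 43 were above 0 in every library, and 3 (Tnfrsf1a, Tnfrsf1b and Nfkbid) were listed at 0 in at least 1. Only Nfkbia and Unc93b1 had means of at least 100 FPKM, 6 genes lay between 50 and 100, and 5 (Ikbke, Nfkbid, Rel, Tab3 and Tnfrsf1a) lay between 1 and 5 FPKM.

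**Figure D1:**
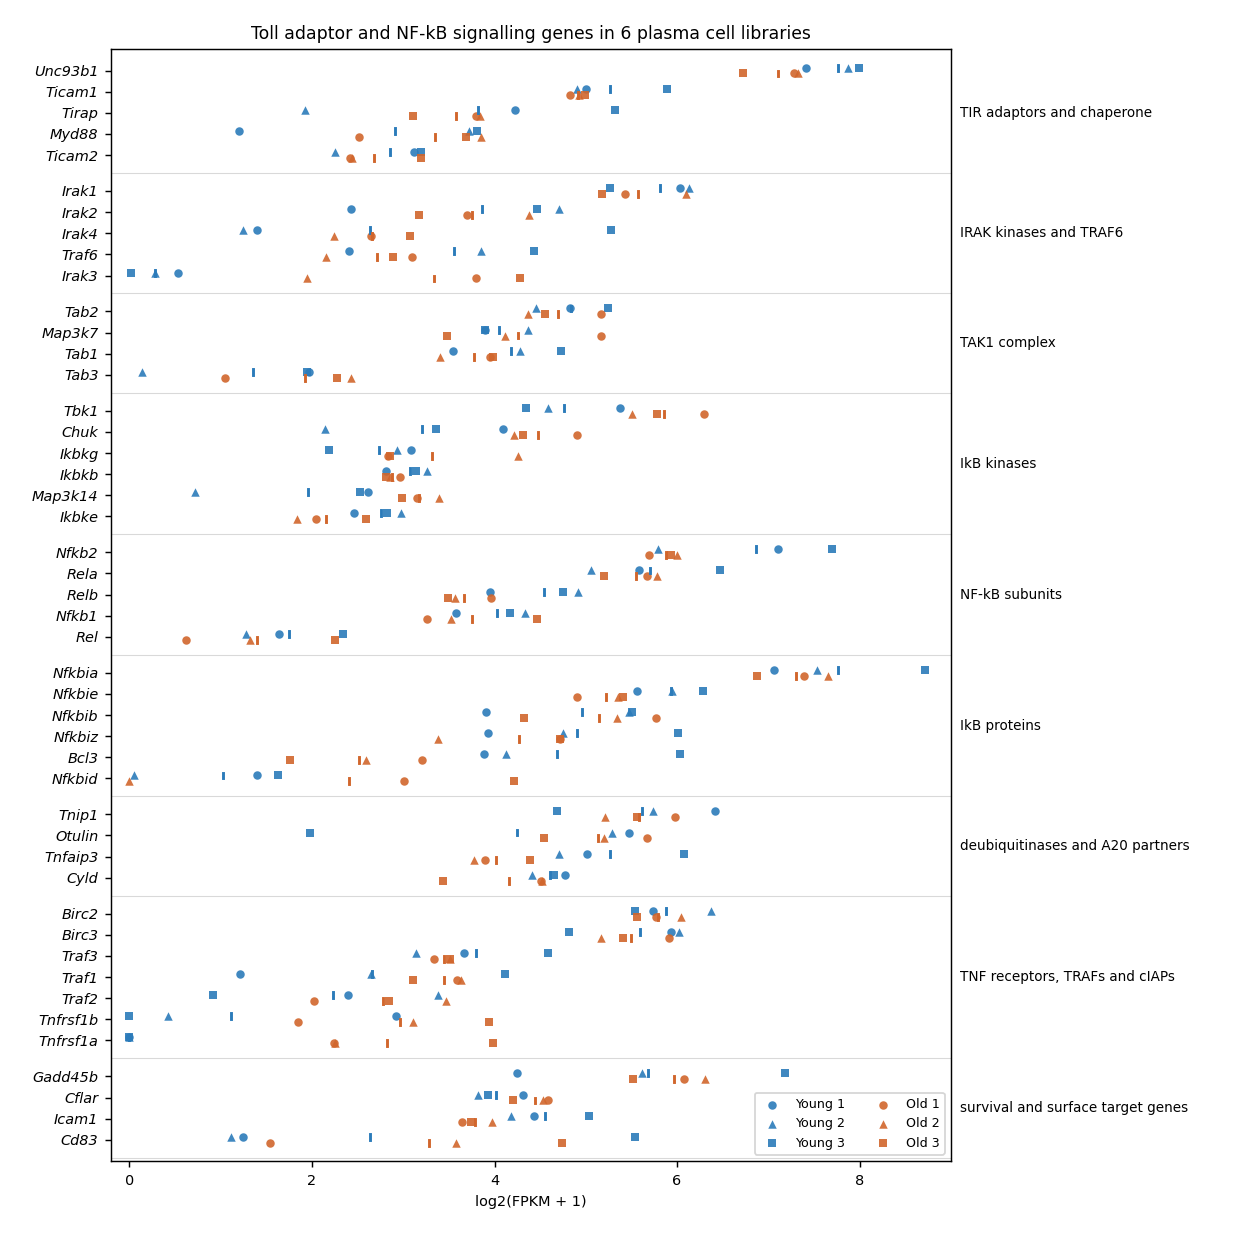
Level of each of the 46 genes on a log2(FPKM + 1) axis, with genes in blocks by role, 1 point per library (blue young, orange old, marker shape for the replicate) and a short vertical bar at each group mean. Nfkbia and Unc93b1 lie farthest to the right, and Irak3 and Tnfrsf1a have all their young points to the left of their old points.

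Old and young libraries were compared with limma on log2(FPKM + 1) over 10687 genes, and log2 changes give old minus young in those units, which understates the change of low genes. At a Benjamini-Hochberg adjusted p under 0.05, limma called 0 of the 46 genes, beside a background of 0.0% of all genes tested. At an unadjusted limma p under 0.05 there were 5 of 46, or 10.9%, against 5.91% of all genes. That count was 2 without young replicate 3, 3 without old replicate 1 or without old replicate 3, and 10 without young replicate 1. Of the 5, 3 had higher old values (Irak3, Tnfrsf1a and Tbk1; background 4.66%) and 2 had lower ones (Bcl3 and Tnfaip3; background 1.25%). There were 10 genes, or 21.7%, whose old and young values did not overlap, against 12.2% of all genes tested. In 5 of them every old value was above every young value (Irak3, Tnfrsf1a, Tbk1, Chuk and Map3k14; background 8.78%), and in 5 every old value was below (Bcl3, Tnfaip3, Unc93b1, Nfkbie and Icam1; background 3.42%). Irak3 and Tnfrsf1a had young means of 0.224 and 0 FPKM and passed the filter at a mean of 1 FPKM through old values alone. A higher old value was thus built in for these genes, and they are no support in either count. A positive log2 change was seen in 19 genes and a negative one in 27, while 61.3% of all genes tested had a positive change and 38.7% a negative one. The median log2 change was -0.13 over the 46 genes and 0.23 over all genes tested, and 30 of the 46 lay below that general median. Scaling moved both medians, to -0.17 and -0.010 under quantile normalization and to -0.23 and 0.14 under median-ratio scaling, and the 46 genes stayed below the general median in each. Without young replicate 3 the median of the 46 was 0.0060 and the sign counts were even, at 23 positive.

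**Figure D2:**
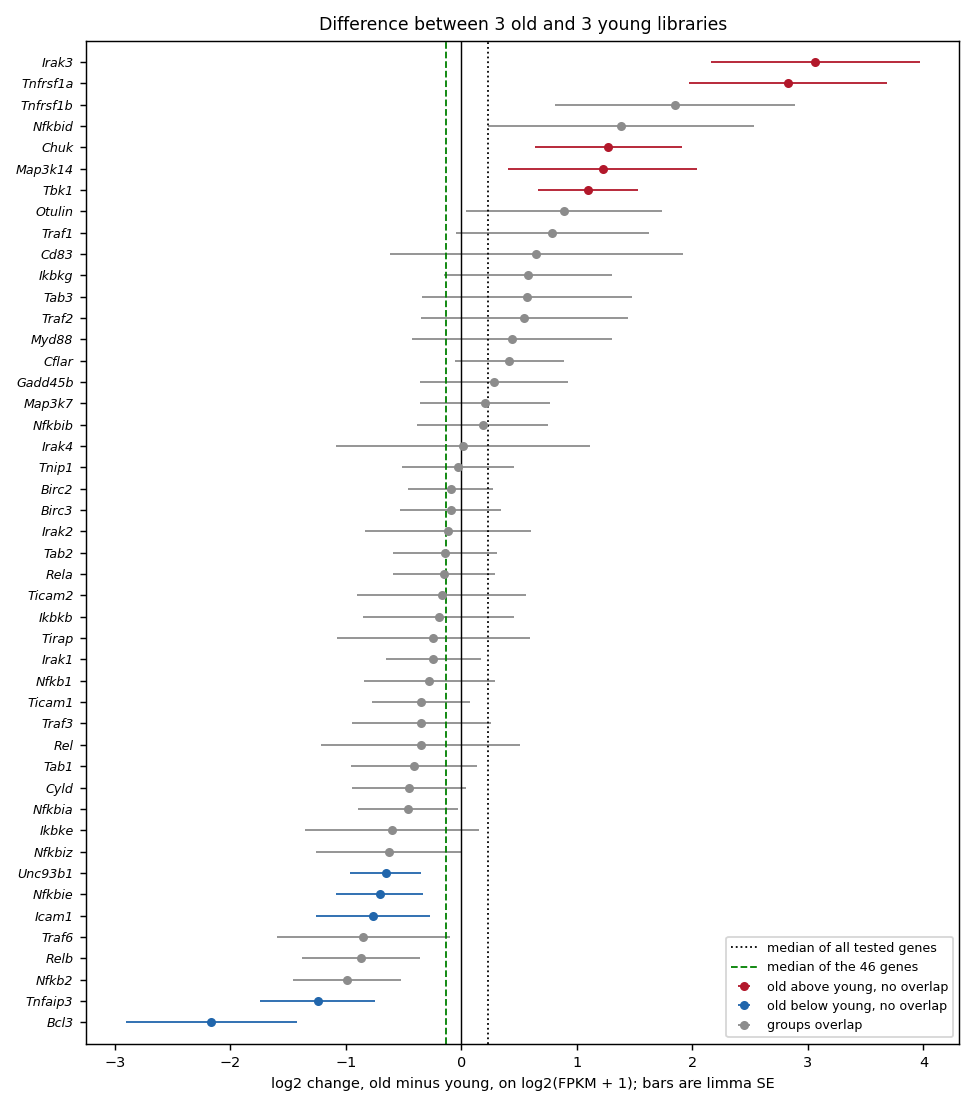
Log2 change of each of the 46 genes, old minus young, with its limma standard error as a bar, coloured by whether the 3 old and 3 young values overlap. The 5 genes in red have every old value above every young value and the 5 in blue the reverse, and the dashed line at -0.13 (the 46 genes) lies to the left of the dotted line at 0.23 (all genes tested).

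The first role group holds the TIR adaptors and the receptor chaperone. Unc93b1, which escorts the nucleic acid-sensing Toll-like receptors from the endoplasmic reticulum to endosomes, was the most abundant of these at 170, 234 and 254 FPKM in young replicates 1 to 3 and 155, 159 and 104 in old replicates 1 to 3. Every old value lay below every young one, although the nearest pair, 170 and 159, was close. The means were 219 ± 44.0 and 139 ± 30.2 FPKM (SD, n = 3 each), and the log2 change was -0.65 ± 0.31 (SE, limma adjusted p = 0.839). The receptors it serves were scarce: Tlr7 was between 0.535 and 10.2 FPKM over the 6 libraries, and Tlr9 was 4.94 in young replicate 2 and at most 0.501 elsewhere. Ticam1, the adaptor TRIF, had young values of 31.0, 28.9 and 58.3 FPKM and stayed between 27.4 and 30.7 in old ones. Myd88, the adaptor of most Toll-like and interleukin-1 receptors, was low in young replicate 1 at 1.30 FPKM and between 4.71 and 13.5 in the other 5 libraries. Tirap, which bridges receptors to MyD88, spanned 2.79 to 39.0 FPKM within the young group alone. Ticam2, which bridges Tlr4 to TRIF, was even, between 3.75 and 8.16 FPKM. Ticam2 shares 14.5% of its exon length with Tmed7 on the same strand, and Myd88 11.3% with Acaa1a on the opposite strand, so reads of these neighbours may be mixed.

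Among the IRAK kinases and TRAF6, Irak1 was the most abundant and Irak3 was near 0 in young libraries. Irak3, also called IRAK-M, is a kinase-dead family member that restrains Toll-like receptor signalling and is best known from monocytes and macrophages. Its FPKM values were 0.445, 0.215 and 0.0127 among young libraries, against 12.9, 2.86 and 18.4 in the old ones. The young values rest on about 40, 20 and 1 reads and the old ones on about 1274, 296 and 1817. The groups did not overlap, the log2 change was 3.06 ± 0.91 (SE), and the limma adjusted p was 0.729. Leaving out single libraries kept the change between 2.60 and 3.76. Irak3 passed the filter through old values alone, so a higher old value was built in. The lack of overlap and this range are therefore no support for a difference. Irak3 lies on chromosome 10 (chr10:120141648-120202130, minus strand, GRCm38), where its exons overlap those of Tmbim4 on the opposite strand over 5.22% of their length.

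Irak1, the kinase recruited to MyD88, did not separate the groups, at 64.6, 69.3 and 37.3 FPKM in young, and 42.2, 67.3 and 35.1 in old libraries. It lies on chromosome X, as do Ikbkg and Tab3, and sex differed between the groups. Irak2 was between 4.37 and 25.2 FPKM and Traf6, the ubiquitin ligase at which the Toll and interleukin-1 branches meet, between 3.45 and 20.6. Irak4, the first kinase of the series, had young values of 1.63, 1.36 and 37.7 FPKM, so that young replicate 3 alone set its group mean, and old values between 3.72 and 7.42. In the TAK1 complex, the kinase gene Map3k7 was between 10.2 and 35.0 FPKM, its ubiquitin-binding partner Tab2 between 19.6 and 36.8, Tab1 between 9.54 and 25.5, and Tab3 between 0.0982 and 4.37. Group ranges overlapped for all 4, and their log2 changes lay between -0.41 and 0.57.

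The IkB kinase group had a median log2 change of 0.84, against 0.23 over all genes tested. The change was positive in 4 of its 6 members, a share near the 61.3% of all genes tested. The same 4 were positive under quantile normalization, under median-ratio scaling and without each single library. Tbk1, a kinase related to the IkB kinases that also activates interferon regulatory factors, was at 40.3, 23.0 and 19.3 FPKM in young libraries, against 77.7, 44.3 and 54.1 in old ones. Each old library exceeded each young one, with means of 27.5 ± 11.2 and 58.7 ± 17.2 FPKM (SD, n = 3), 2.13 times as high. The log2 change was 1.10 ± 0.43 (SE, limma adjusted p = 0.829), and it ranged from 0.88 to 1.40 without single libraries. Tbk1 lies on chromosome 10 (chr10:121546455-121586787, minus strand, GRCm38). Summed over the 6 genes of this group, levels were 79.6, 49.1 and 50.8 FPKM in young and 131, 98.2 and 97.2 FPKM in old libraries. Tbk1 was the largest part of each sum, so the sums largely repeat its values.

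Chuk, the IkB kinase alpha that acts in the alternative branch, was at 16.1, 3.43 and 9.28 FPKM in young, and 28.9, 17.6 and 18.8 in old libraries. The ratio of means was 2.27, and the nearest values of the groups were 16.1 and 17.6 (limma adjusted p = 0.839). Map3k14, the kinase NIK that starts the alternative branch, was at 5.13, 0.648 and 4.75 against 7.89, 9.498 and 6.93 FPKM. Without young replicate 2, the lowest library for both, the log2 change of Chuk was 0.75 in place of 1.27 and that of Map3k14 0.61 in place of 1.22. The canonical kinase Ikbkb was steady, between 6.04 and 8.55 FPKM in all 6 libraries. Ikbkg, the scaffold NEMO, was at 18.0 FPKM in old replicate 2 and between 3.54 and 7.504 in the other 5. Ikbke, an inducible relative of Tbk1, had a negative log2 change, with means of 5.82 ± 1.22 and 3.57 ± 1.28 FPKM for young and old libraries (SD, n = 3) and overlapping values.

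All 5 NF-kB subunit genes had a negative log2 change, between -0.99 and -0.15, and limma called 0 of them, with 0 at an unadjusted p under 0.05. The count was also 5 of 5 under quantile normalization and median-ratio scaling, and 4 of 5 without young replicate 3, old replicate 1 or old replicate 3. Nfkb2, the subunit of the alternative branch, was at 137, 54.3 and 206 FPKM in young, and 50.8, 62.9 and 60.3 in old libraries. Young replicates 1 and 3 were high, while young replicate 2 lay inside the old range. The log2 change was -0.99 ± 0.47 (SE, limma adjusted p = 0.839), and it was -1.52 without young replicate 2 and -0.57 without young replicate 3. Relb, the partner of the Nfkb2 product, was at 14.5, 29.2 and 25.9 against 14.6, 10.8 and 10.2 FPKM, so that a single old value lay above the lowest young one by a narrow margin. Rela, the main activating subunit of the canonical branch, was at 46.9, 32.2 and 87.3 against 49.9, 54.1 and 35.7. Nfkb1 was between 8.55 and 21.1 FPKM, and Rel, a subunit typical of activated B cells, was lowest at 0.535 to 4.06. Within summed subunit FPKM, Nfkb2 took 64.8%, 39.8% and 60.5% in young replicates 1 to 3, and old replicate 1 had the lowest old share at 40.8%. The share of Rela was 22.2% to 25.7% in young and 27.2% to 40.1% in old libraries, which did not overlap, and as a share it moves with the other subunits. On the opposite strand, exons of the gene model AC114539.1 overlap 11.6% of the exon length of Nfkb2 and those of Psd 6.52%.

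IkB proteins hold NF-kB in the cytoplasm or modulate it in the nucleus. Nfkbia, which encodes IkB-alpha and is itself an NF-kB target, was the most abundant of the 46 genes at 132, 184 and 419 FPKM in young, and 167, 201 and 116 in old libraries. The value of young replicate 3 was above all others, and the other 5 interleaved. The log2 change of -0.46 ± 0.43 (SE, limma adjusted p = 0.854) became 0.012 without young replicate 3. Bcl3, a nuclear IkB that binds homodimers of the NF-kB subunits, was at 13.7, 16.4 and 64.7 FPKM in young, and 8.23, 5.01 and 2.38 in old libraries. Every old value was below every young one, and the means were 31.6 ± 28.7 and 5.21 ± 2.93 FPKM (SD, n = 3). Its log2 change of -2.16 ± 0.74 (SE, limma adjusted p = 0.736) was the lowest of the 46, and it was -1.48 without young replicate 3. Within summed FPKM of the 6 IkB genes, Bcl3 took 4.96% to 9.65% in young and 1.07% to 2.84% in old libraries. Bcl3 lies on chromosome 7 (chr7:19808462-19822770, minus strand, GRCm38), and 6.51% of its exon length overlaps a gene model on the opposite strand.

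Nfkbie, which encodes IkB-epsilon, was at 46.1, 60.5 and 76.9 FPKM in young, and 28.9, 39.9 and 41.5 in old libraries. The groups did not overlap, and the ratio of old to young means was 0.601 (log2 change -0.71 ± 0.38 SE, limma adjusted p = 0.841). Nfkbib, the third classical inhibitor, overlapped, at 33.9 ± 17.2 against 37.3 ± 17.4 FPKM (SD, n = 3). Nfkbiz, a nuclear IkB, was at 14.3, 25.9 and 63.6 in young libraries, again highest in young replicate 3, and between 9.43 and 25.4 in old ones. Nfkbid, the other nuclear IkB, was uneven at 1.64, 0.0334 and 2.09 against 7.07, 0 and 17.5 FPKM.

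Further inhibitors act on ubiquitin chains. Tnfaip3, the enzyme A20 that is induced by NF-kB and ends its activation, was at 31.2, 25.2 and 66.3 FPKM in young, and 13.9, 12.7 and 19.9 in old libraries. The groups did not overlap, the ratio of means was 0.379, and the log2 change was -1.24 ± 0.50 (SE, limma adjusted p = 0.831). Without young replicate 3 the change was -0.84. Its partner Tnip1 was at 84.1, 52.3 and 24.7 against 62.0, 36.1 and 46.1 FPKM, with young replicate 3 the lowest library. Cyld, which removes lysine-linked chains, was between 9.82 and 26.2 FPKM. Otulin, which removes linear chains, was at 43.6, 38.0 and 2.93 in young and 49.98, 35.8 and 22.2 in old libraries, so young replicate 3 was low for it too. Tnfaip3 lies on chromosome 10 (chr10:19000910-19015657, minus strand, GRCm38).

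Because the feedback inhibitors are known NF-kB targets, bases before RefSeq start sites are shown for some of them and for other members. The kappaB consensus, the letter pattern that NF-kB dimers bind, was searched on both strands in windows of 250 bases before to 50 after each RefSeq start (GRCm38.p6), which were at hand for 38 of the 46 genes. It was found for 12 of the 38 genes, or 31.6%, against 9.55% of 27025 genes with a window and 11.8% of 8304 tested genes with one. A narrower pattern that partly overlaps the consensus, GGG, any 2 bases and TTTCC, was found for 8 of the 38, or 21.1%, against 1.89% of all genes. The 12 genes were Bcl3, Cyld, Irak1, Map3k7, Nfkb2, Nfkbia, Nfkbid, Nfkbie, Rel, Tnfaip3, Tnip1 and Traf3. A match is a letter pattern and not a measured binding site, and base composition was not matched in these shares. For Nfkb2 and Tnfaip3 the stretches shown lie inside the GENCODE gene spans, chr19:46304320-46312385 (plus strand) and chr10:19000910-19015657 (minus strand). The 250 bases before these RefSeq starts overlap exons of the same gene, and for Nfkb2 also exons of AC114539.1. The 250 bases before the Nfkbia start (chr12:55492648-55492897, minus strand) hold 1 match, shown in capitals, which begins 29 bases before the start. Shorter stretches of the gene strand follow for 5 other genes whose windows hold a match, written 5′ to 3′ with the consensus in capitals: Nfkb2 (chr19:46304688-46304717), Nfkbie (chr17:45555584-45555613), Tnfaip3 (chr10:19015411-19015432), Tnip1 (chr11:54962978-54963007) and Rel (chr11:23771042-23771071).
Nfkbia: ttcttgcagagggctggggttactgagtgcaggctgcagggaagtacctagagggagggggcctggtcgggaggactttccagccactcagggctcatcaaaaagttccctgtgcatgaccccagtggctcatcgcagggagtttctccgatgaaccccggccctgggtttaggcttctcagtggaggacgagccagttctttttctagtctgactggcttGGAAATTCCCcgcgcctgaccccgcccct
Nfkb2: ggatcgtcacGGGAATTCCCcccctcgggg
Nfkbie: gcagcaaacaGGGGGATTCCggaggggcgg
Tnfaip3: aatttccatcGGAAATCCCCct
Tnip1: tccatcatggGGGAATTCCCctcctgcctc
Rel: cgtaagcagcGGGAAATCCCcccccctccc
Of the 12 genes with a match, 10 had a negative log2 change and 7 had their highest value in young replicate 3. Of the 26 with a window and no match, 10 were negative and 9 were highest in that library. Members without a window fall outside this split. Among them Ikbkb, Relb, Ticam2, Tab1, Nfkbiz, Nfkb1 and Unc93b1 were also negative, between -0.87 and -0.17, and Cd83 was positive at 0.65. The split by match was not planned beforehand, and a link between match and sign was not tested. Among all tested genes the shares with a negative change were 41.0% with a match and 38.3% without, and the shares highest in that library 22.9% and 19.9%. The signs of Nfkbia and Traf3, which are among the 10, turned positive without young replicate 3, that of Rel without old replicate 1, and that of Tnip1 under quantile normalization and without young replicate 1, young replicate 2 or old replicate 2.

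The TNF receptors, their TRAF adaptors and the cIAP ligases had log2 changes of both signs, with 4 positive and 3 negative as deposited and 3 and 4 under quantile normalization, where Traf2 turned negative. Tnfrsf1a, the main receptor for tumour necrosis factor, was listed at 0 in all 3 young libraries and at 3.71, 3.77 and 14.8 FPKM in the old ones. The old values rest on about 259, 276 and 1033 reads (log2 change 2.83 ± 0.86 SE, limma adjusted p = 0.736), and the change was 2.25 without old replicate 3. Tnfrsf1a passed the filter through old values alone, so these changes are no support for a difference. Tnfrsf1a lies on chromosome 6 (chr6:125349362-125362484, plus strand, GRCm38). Tnfrsf1b, the second receptor for that cytokine, was at 6.60, 0.339 and 0 in young and 2.60, 7.59 and 14.4 in old libraries, which overlap. Both receptors and Irak3 were highest in old replicate 3.

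Old replicate 3 was in addition the library with the highest sum of 9 monocyte and macrophage markers, 560 FPKM, against 36.2 to 123 in young libraries and 180 and 204 in the other old ones, and most of each sum was Lyz2. The defining markers Fcgr1 and Adgre1 were at 0 in all young libraries, Fcgr1 was below 0.1 FPKM in all 6, and Adgre1 was highest at 2.75 in old replicate 3. Csf1r was between 0 and 2.48 FPKM in young libraries and between 0.198 and 8.97 in old ones. The sum of 10 neutrophil markers was 427 to 562 FPKM in young, and 259 to 1245 in old libraries, highest in old replicate 2. Elane, Mpo and Prtn3 were highest in old replicate 3, at 220, 264 and 86.2 FPKM. S100a9 and Ngp were lowest in that library, at 40.2 and 38.4 FPKM. Retnlg and Ly6g were at 0 there, and Camp, S100a8 and Ltf at 0.164, 1.03 and 3.43 FPKM. The part of these cells in the values of Irak3, Tnfrsf1a and Tnfrsf1b was not tested, and in bulk samples fewer cells of a type and less RNA per cell cannot be told apart.

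Birc2 and Birc3, the ubiquitin ligases cIAP1 and cIAP2 that hold NIK in check together with Traf2 and Traf3, were abundant, and their group ranges overlapped. Birc2 was at 52.2, 81.9 and 45.5 FPKM in young, and 53.4, 64.8 and 46.3 in old libraries, and Birc3 at 50.4 ± 20.2 and 45.2 ± 12.5 (SD, n = 3). The log2 changes of both were -0.09, with standard errors of 0.37 and 0.44. Traf3 was at 11.7, 7.80 and 23.1 against 9.07, 10.4 and 10.4 FPKM, and Traf2 between 0.892 and 10.1. Traf1, an NF-kB target, was at 1.31, 5.28 and 16.4 in young and between 7.64 and 11.4 in old libraries.

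Among survival and surface targets, Icam1, an adhesion molecule gene induced by NF-kB, was at 20.6, 17.2 and 31.9 FPKM in young, and 11.5, 14.7 and 12.4 in old libraries. The groups did not overlap, and the means were 23.2 ± 7.70 and 12.9 ± 1.65 FPKM (SD, n = 3, limma adjusted p = 0.848). A gene model on the opposite strand overlaps 11.7% of its exon length. Gadd45b, a stress-induced regulator of kinase cascades, was at 18.0, 48.1 and 144 against 66.2, 77.8 and 44.8 FPKM, so the young values lay both below and above the old ones. Its log2 change was 0.28 with all libraries, -0.44 without young replicate 1 and 1.03 without young replicate 3. Cflar, which encodes the caspase-8 inhibitor FLIP, had means of 15.4 ± 3.04 and 20.8 ± 3.04 FPKM for young and old libraries (SD, n = 3). Cd83 was at 1.37, 1.17 and 45.6 against 1.91, 11.0 and 25.6 FPKM.

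A single library held the top value of many of these genes. Young replicate 3 was highest for 21 of the 46, or 45.7%, while it was highest for 20.2% of all genes tested. Young replicate 1 was highest for 2 of the 46, or 4.35%, against 15.7% of all genes. Among genes with a mean of at least 20 FPKM, young replicate 3 was highest for 10 of 18 members, against 26.4% of 2835 tested genes of that level. By role it was highest for 4 of 5 adaptor and chaperone genes, 4 of 6 IkB proteins, 3 of 5 NF-kB subunits and 3 of 4 survival and surface targets, and for 0 of 6 IkB kinases. The median log2(FPKM + 1) of the 46 genes was 4.62 in that library and between 3.85 and 4.23 in the other 5, while the median over all genes tested was lowest there, at 2.94. Immediate early genes, chosen here after their values were seen, were also high in young replicate 3 within the young group. Fos was at 65.3, 370 and 713 FPKM and Fosb at 27.6, 84.8 and 245 in young replicates 1 to 3. In the old libraries Fos was at 767, 522 and 190 FPKM and Fosb at 418, 156 and 42.8, and both were highest of all in old replicate 1. The part of depth or handling in these values was not tested.

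**Figure D3:**
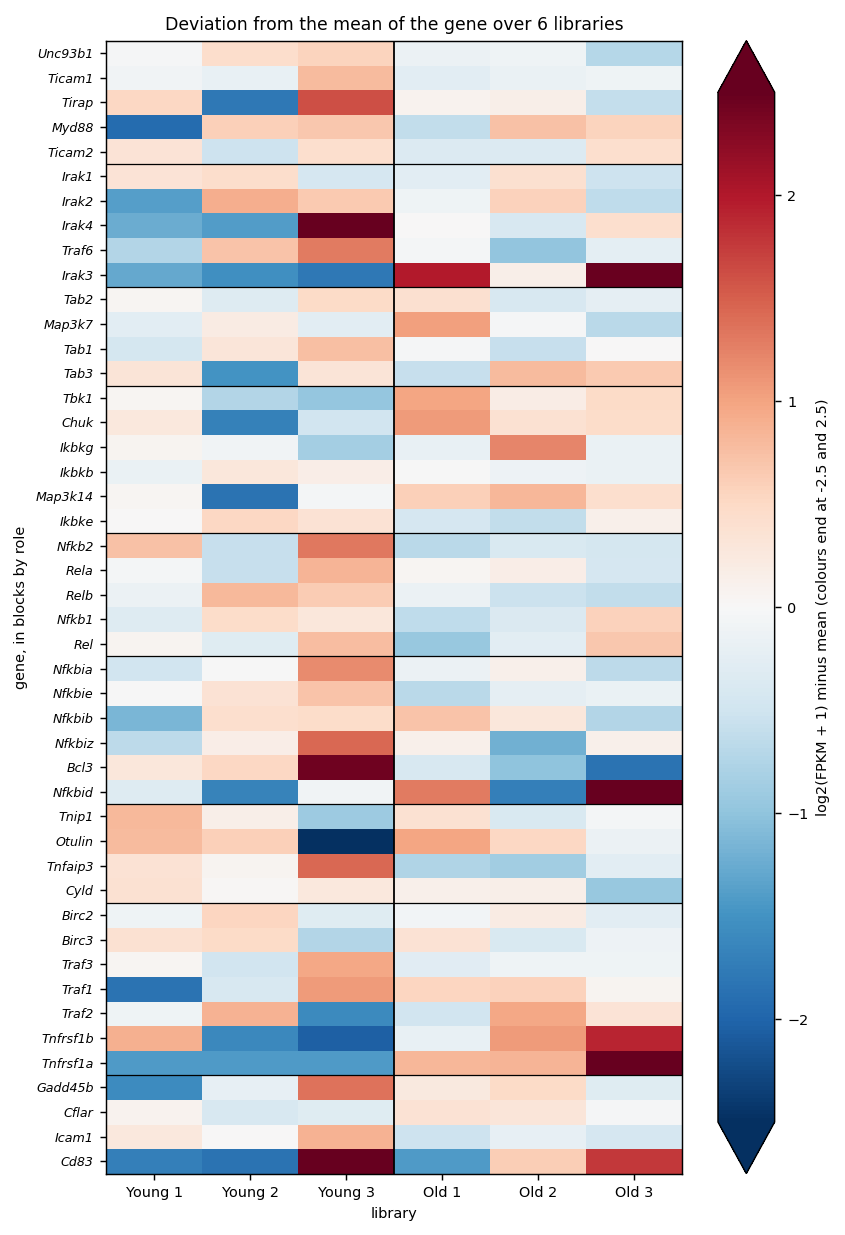
Deviation of each of the 46 genes in each library from the mean of that gene over the 6 libraries, in log2(FPKM + 1) units, with red above and blue below the mean and rows in blocks by role. The young replicate 3 column is red for 4 of the 6 IkB protein genes that peak there, among them Nfkbia at 419 FPKM and Bcl3 at 64.7, and deep blue for Otulin at 2.93.

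**Figure D4:**
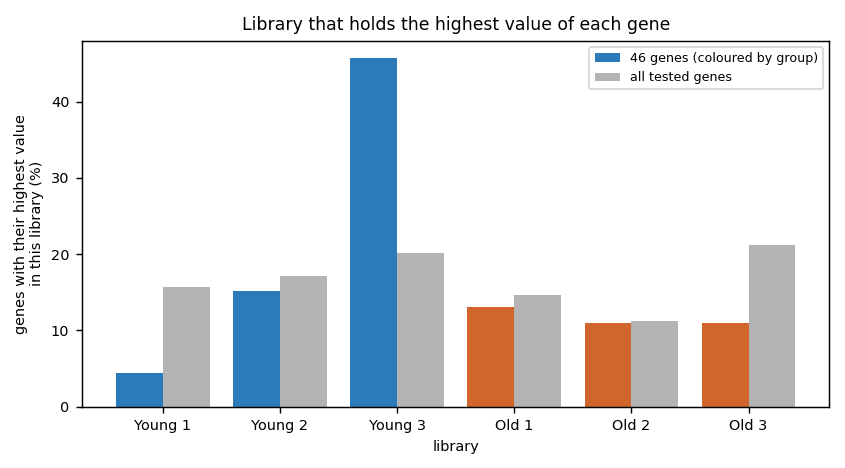
Percentage of genes whose highest value lies in each library, for the 46 genes (coloured bars) and for all 10687 tested genes (grey bars), with bars from 0. Young replicate 3 holds 45.7% of the top values of the 46 genes against 20.2% of those of all genes.

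The SD of log2(FPKM + 1) was larger among the young than among the old libraries for 35 of the 46 genes, or 76.1%, against 65.8% of all genes tested. The highest library was at least 5 times the lowest for 22 of the 46 genes, while this held for 65.8% of all genes tested.

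**Figure D5:**
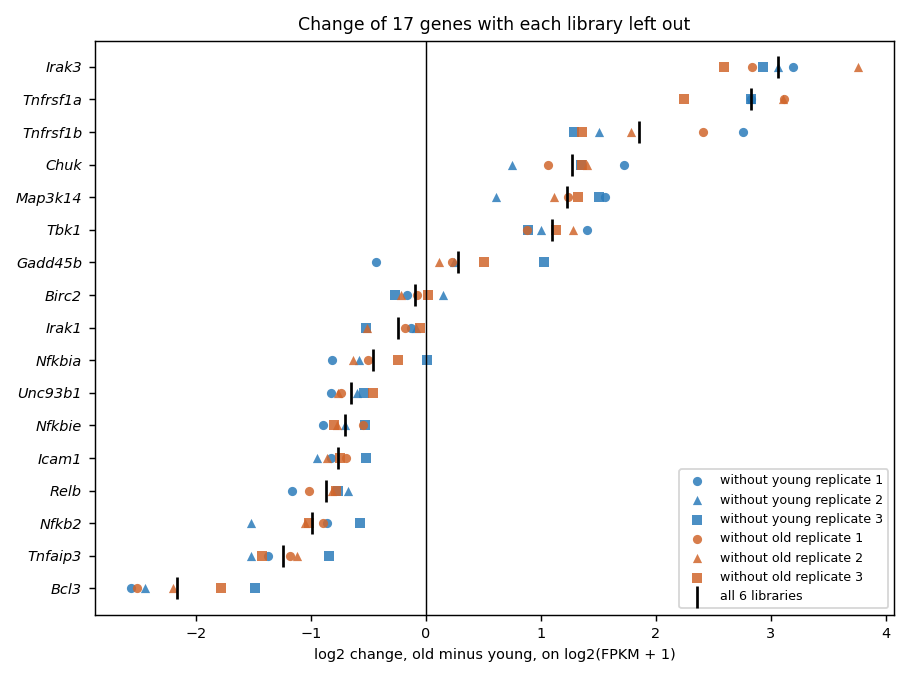
Log2 change of 17 genes with all 6 libraries (black bars) and with each library left out in turn (points, blue for young and orange for old libraries left out), on log2(FPKM + 1). Bcl3 lies between -2.56 and -1.48 and Irak3 between 2.60 and 3.76, while Nfkbia, Gadd45b and Birc2 have points on both sides of 0. Irak3 and Tnfrsf1a passed the filter through old values alone, so their positive change was built in.

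Other genes of the pathway, in lists that were written down by role, gave 0 limma calls in each list. At an unadjusted limma p under 0.05 there were 1 of 11 tested Toll-like and interleukin-1 family receptors (Tlr4), 2 of 8 TNF family receptors (Tnfrsf13c and Tnfrsf4), 1 of 20 ubiquitin and scaffold genes (Traf4), 0 of 13 other negative regulators and 2 of 14 other targets (Ccl3 and Ccl4). Over all genes tested the share was 5.91%. Several of these genes, such as Tlr4, Ccl3, Ccl4, Tlr13 and Tnf, passed the filter at a mean of 1 FPKM through old values alone. The signs within a list are therefore not counted, and the counts that hold Tlr4, Ccl3 and Ccl4 are no support for a difference. Tlr4, the lipopolysaccharide receptor, was at 0.643, 0.761 and 0.0159 FPKM in young, and 7.31, 7.39 and 12.7 in old libraries, and like Irak3 it was highest in old replicate 3. Sigirr, an inhibitory receptor of the family, was at most 0.925 in young and 0.404, 1.74 and 4.10 in old libraries, and Cd180 was 20.03 ± 9.46 against 11.5 ± 5.02 FPKM (SD, n = 3). Among TNF family receptors, Tnfrsf13c, the BAFF receptor that signals through NIK, was at 110, 99.6 and 54.0 in young and 202, 250 and 156 FPKM in old libraries, which did not overlap (log2 change 1.23 ± 0.36 SE, limma adjusted p = 0.729). Tnfrsf4 was at 9.86, 1.95 and 0 against 23.6, 14.6 and 6.84, and Tnfrsf18 did not exceed 0.351 in the young group but was at 20.99, 1.51 and 0.252 FPKM in the old. The sum of 10 B cell markers was 391 to 507 FPKM in young and 236 to 677 FPKM in old libraries, which overlap, and Ms4a1 was at most 6.15 in young and 25.3, 15.5 and 6.31 in old ones. The part of B cells in the values of Tnfrsf13c was not tested.

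Among ubiquitin and scaffold genes, Ripk1, the kinase of the TNF receptor complex, was at 33.1, 14.1 and 4.96 against 34.9, 20.1 and 51.8 FPKM, and Sharpin, a subunit of the linear ubiquitin ligase, at 12.6, 3.41 and 3.12 against 24.4, 18.0 and 8.72. Traf4 was below its young range in every old library, at 18.3 ± 7.54 against 5.45 ± 3.09 FPKM (SD, n = 3). Among negative regulators, the A20-binding gene Tnip2 was 25.2 ± 8.68 against 46.6 ± 10.2 FPKM (SD, n = 3) without overlap, Nfkbil1 was at 7.19, 2.52 and 0 against 3.01, 21.4 and 16.3, and Socs1 was at 34.8 in young replicate 2 and at most 1.95 elsewhere. Among other targets, the chemokine genes Ccl3 and Ccl4 were at most 0.0607 FPKM in young libraries, and at 0, 23.4 and 46.7 and at 10.02, 0 and 16.2 in old ones, while Sod2 was at 29.7, 11.4 and 0.0143 against 40.9, 16.9 and 27.9. In that list Tnf, Il6, Ier3, Ccl4, Ccl5, Cxcl2, Plau and Ptgs2 were listed at 0 in all 3 young libraries, and 0 genes were so in all 3 old ones. Young libraries had fewer genes above 0 in general, 8934 to 10664 against 11310 to 12049. The share of all genes at 0 in all young libraries was not computed, so these zeros are not read as a trait of target genes.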

How the data were processed

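The authors deposited FPKM values per gene, with no counts and replicates not pooled, so sequencing depth was approximated from the value of 1 read. The submitters' processing notes name bcl2fastq 2.17, STAR, DESeq2, GRCm38 and mm10 without roles. The counter, annotation release and strand setting are not given in the sources used here. Exon lengths, positions and overlaps came from GENCODE M21 on GRCm38, in which 99.9% of identifiers were found.

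Genes with a mean of at least 1 FPKM over the 6 libraries entered limma 3.58.1 (R 4.3.3), which fitted group as the only term and a mean-variance trend on log2(FPKM + 1), two-sided, with Benjamini-Hochberg adjustment over all genes tested. The procedure was tested on simulated data. Tables and figures used Python 3.11.15, pandas 2.3.3 and matplotlib 3.10.9. Approximate reads are FPKM times exon kilobases times library size. They come from amplified RNA and cover counting error alone.

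The 46 genes, their roles, the other pathway lists and the marker lists were chosen with earlier results of these data known, so no test was made over a list. Values of every library are printed for genes of smallest p in each direction, of highest level or without overlap between groups, and for up to 3 genes of smallest p in each other list. Further genes named with single values were chosen after their values were seen. Alternatives were 2 pseudocounts, 3 filters, 2 scalings, a replicate block and leaving out each library.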

Additional observations from a re-analysis of the deposited data

How the results depend on the processing

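Limma called 0 of the 46 genes with all libraries and under all 14 alternatives, and 0 of all genes tested except under quantile normalization, where it called 1 gene that is not among the 46. Of 229 log2 changes recomputed for 17 genes, 225 kept their direction and stayed uncalled, and 4 changed direction. Without single libraries the change of Birc2 ranged from -0.26 to 0.15, that of Gadd45b from -0.44 to 1.03 and that of Nfkbia from -0.82 to 0.012. The number of the 46 genes with an unadjusted limma p under 0.05, 5 with all libraries, was lowest at 2 without young replicate 3 and highest at 10 without young replicate 1, and was 3 without old replicate 1 or old replicate 3. With a filter at a mean of at least 20 FPKM, 18 of the 46 genes remained, 2 of them with such a p and 4 with a positive change. The median log2 change of the 46 genes lay between -0.27 (young replicate 1 left out) and 0.0060 (young replicate 3 left out). Replicate numbers in the titles were not treated as pairs in the main fit. Correlations of deviations between same-numbered libraries were -0.034, 0.020 and -0.0041, and not every library correlated best with its own number. With 3 libraries per group these correlations cannot decide whether same-numbered libraries were handled together. A replicate block gave 0 calls and 6 genes with an unadjusted limma p under 0.05. Values of a few hundredths FPKM rest on a few reads.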

Other observations

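Among the 46 genes, 3 that act far apart in the pathway were set by young replicate 3 against the rest of its group. Irak4 was at 37.7 FPKM there, about 4240 reads, and at 1.63 and 1.36 in the other young libraries, about 201 and 176 reads. Cd83 was at 45.6 FPKM there against 1.37 and 1.17. Otulin went the other way, at 2.93 against 43.6 and 38.0. These genes were chosen after their values were seen, and the old libraries lay between 3.72 and 7.42 FPKM for Irak4 and between 22.2 and 49.98 for Otulin. For Cd83 the old libraries were at 1.91, 11.0 and 25.6 FPKM.

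Summed FPKM of the remaining marker lists overlapped between groups for T and NK cells (10.7 to 28.9 in young and 10.3 to 45.7 in old libraries), eosinophils and basophils (1260.0 to 1519 and 904 to 1731), erythroid cells (29.9 to 312 and 47.0 to 981), megakaryocytes (0.160 to 12.3 and 4.45 to 46.6) and stromal cells (7.94 to 18.9 and 13.2 to 16.0). Most of each eosinophil and basophil sum was Prg2, at 861 to 1353 FPKM. Mcpt8, Prss34 and Cpa3 were highest in old replicate 3, at 265, 274 and 54.7 FPKM, and at most 27.6, 41.8 and 1.78 elsewhere. Epx and Ear6 were highest in young replicate 2 and Fcer1a in young replicate 3. The part of these cells in the values of the 46 genes was not tested. For plasmacytoid dendritic cells the sums were 339 to 612 in young and 292 to 347 in old libraries, which also overlap. Ly6d was the most abundant gene of that list, and Bst2 was at 200 FPKM in young replicate 3. Ly6d and Ccr9 were lower in every old library. Cox6a2, at 0, 12.1 and 0 against 119, 24.2 and 48.4 FPKM, and Pacsin1 were higher in every old library. Plasma cell markers summed to 19874 to 23148 in young and 9010 to 22815 in old libraries, lowest in old replicate 3.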
